A study of Canis lupus familiaris with 17 samples.

Results

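Tgfbr2, the type II receptor of the transforming growth factor beta (TGF-beta) ligands, and Thbs1, the secreted matrix glycoprotein thrombospondin-1, were followed in the transcriptomes of MDCK cells, a long-established dog kidney line of epithelial origin. Each gene name led to 1 transcript of the 21571 that were measured, XM_534237.3 for Tgfbr2 and XM_544610.3 for Thbs1. Both names were found in the study's own list of transcripts that differ between scribKD and control cells, and Tgfbr2 is in its list for scribRES and scribKD cells too. Those lists were made from the libraries described here. The difference between scribKD and control cells is therefore given for both genes as a description without a test, and so is the difference of Tgfbr2 between scribRES and scribKD cells.

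The study asked which transcripts change when cells lose Scribble, a cell polarity protein, and become sensitive to crowding. All 3 populations carry a tetracycline-inducible short hairpin RNA against scribble. Control cells are the scribKD line at 0 μg/ml tetracycline, and scribKD cells are the same line at 10 μg/ml. The scribRES cells descend from scribKD cells that outlived long culture in tetracycline, were expanded without it and were again given 10 μg/ml. In each case 1300000 cells were plated and RNA was taken at 67 h. Experiments 1, 2 and 3 each hold 2 control and 2 scribKD libraries, numbered here as replicates 1 and 2, 3 and 4, and 5 and 6. Experiments 2 and 3 also hold 2 scribRES libraries each, under the same numbers, so that 6 control, 6 scribKD and 4 scribRES libraries were compared. The knockdown comes from 1 hairpin line, and tetracycline itself and the loss of Scribble cannot be told apart in these groups. The labels do not say whether the libraries of an experiment came from separate cultures. The study counts 3 biological replicates for control and scribKD cells and 2 for scribRES cells, the same as the numbers of experiments. The 2 libraries of a population in an experiment may thus not be independent biological replicates. Each n below counts libraries, and p-values measure the spread between these libraries, which may in part be technical.

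TGF-beta ligands bind a pair of type II receptors, which then phosphorylate type I receptors, and these activate Smad transcription factors. Epithelial cells answer with growth arrest, matrix production and, in some settings, loss of epithelial character, and several targets, such as Smad7 and Pmepa1, feed back to restrain the signal. The ligands are secreted in a latent form held by a propeptide and the matrix, and Thbs1, which also binds CD47 and matrix proteins, is one of the factors known to release them, beside integrins such as the one that contains Itgb8.

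Levels are in RPKM, the reads on a transcript relative to its length and to all reads of the library. Each run held between 12612664 and 29002703 reads on transcripts, and control replicate 2, sequenced in 2 runs, entered as the mean of both and counts once. Scrib itself averaged 28.9 RPKM in control, 12.9 in scribKD and 13.3 in scribRES cells. Of 14 epithelial marker symbols 11 had a named transcript, 12 transcripts in all, and each of these averaged over 1 RPKM. Their summed level was 1980 to 2807 RPKM in control, 1288 to 1777 in scribKD and 1473 to 2196 in scribRES libraries. It was thus lower in scribKD than in control libraries, while scribRES libraries overlapped both. The part of this summed level in the results below was not tested. Of the other cell types' markers, only 1 of 8 fibroblast symbols and 1 of 5 endothelial symbols had a named transcript. Dcn of fibroblasts reached at most 0.0560 RPKM and Vwf of endothelium at most 0.178, and none of the 5 leukocyte markers had a named transcript. The other markers of these cell types could not be read. In bulk RNA of this kind, a lower share of cells that express a gene and less of its RNA per cell cannot be told apart.

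Tgfbr2 was lowest in control cells, intermediate in scribRES cells and highest in scribKD cells, and the 3 populations did not overlap. In control libraries 1 to 6 its level was 31.9, 34.9, 29.0, 30.6, 32.5 and 31.2 RPKM, with a lowest value of 29.0, a median of 31.6 and a highest of 34.9. In scribKD libraries 1 to 6 it was 60.4, 66.1, 72.7, 75.3, 62.5 and 63.7 RPKM, with a median of 64.9. In scribRES libraries 3 to 6 it was 43.0, 42.7, 36.3 and 37.9 RPKM. Every scribKD library thus lay above every scribRES library, and every scribRES library above every control library. The group means were 31.7 ± 2.0 (SD, n = 6) in control, 66.8 ± 5.94 (SD, n = 6) in scribKD and 40.0 ± 3.39 (SD, n = 4) in scribRES cells. The spread within a population was narrow, with coefficients of variation of 6.32%, 8.90% and 8.49%. Between 1816 and 8100 reads lay behind each value, which gives a counting error of 2.35% to 1.11%.

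Thbs1 was a far more abundant transcript than Tgfbr2 per kilobase, and it was above control in every scribKD and every scribRES library, but scribKD and scribRES cells overlapped. Control libraries 1 to 6 held 210, 212, 210, 253, 183 and 154 RPKM of Thbs1, with a median of 210. The scribKD libraries held 651, 999, 801, 728, 308 and 295 RPKM, with a median of 690. The scribRES libraries 3 to 6 held 498, 536, 313 and 351 RPKM. Within the scribKD population the 4 libraries of experiments 1 and 2 were high and the 2 of experiment 3 were low, below all 4 scribRES libraries. The means were 204 ± 33.0 (SD, n = 6) in control, 630 ± 280 (SD, n = 6) in scribKD and 425 ± 109 (SD, n = 4) in scribRES cells. The coefficients of variation were 16.2%, 44.4% and 25.7%, each larger than the corresponding one of Tgfbr2. Counting error was between 0.889% and 0.320%, from 12650 to 97822 reads, and so is small beside that spread. Ranked by RPKM, Thbs1 stood at place 386 to 798 of the 21571 transcripts in control, 80 to 361 in scribKD and 174 to 334 in scribRES libraries. Tgfbr2 stood at place 4063 to 4819 in control, 1896 to 2244 in scribKD and 3250 to 3894 in scribRES libraries.

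**Figure D1:**
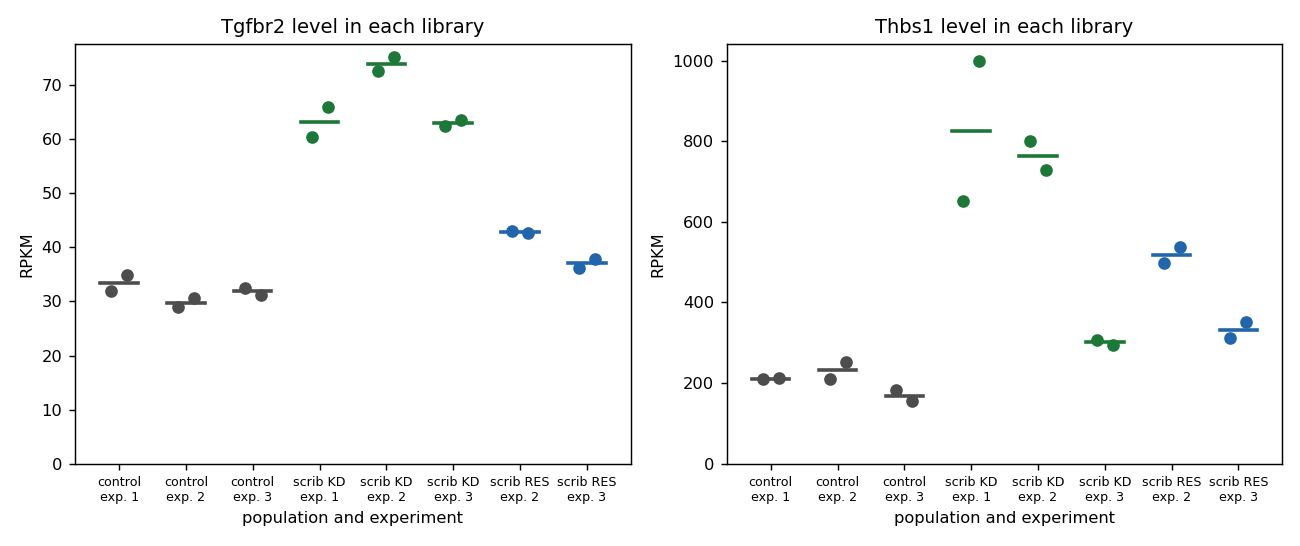
Level of Tgfbr2 (left) and Thbs1 (right) in RPKM on a linear axis from 0, by population and experiment, with 1 point for each of the 16 libraries and a bar at the mean of each pair. Tgfbr2 forms 3 levels that do not overlap, around 31.7, 40.0 and 66.8 RPKM, while Thbs1 in scribKD cells falls from a mean of 825 and 764 RPKM in experiments 1 and 2 to 302 in experiment 3.

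By fold change, both genes were among the transcripts with the largest rises in scribKD cells, which is what put them in the list. Fold changes were fitted with limma on log2(RPKM + 0.1), which slightly understates them. For scribKD over control the log2 fold change was 1.07 (standard error 0.08) for Tgfbr2, and the ratio of the means was 2.11. For Thbs1 it was 1.50 (standard error 0.27), and the ratio of the means 3.09. To be called, a transcript had to pass both an adjusted p of 0.05 and a log2 fold change of 0.5 in size. Of the 9691 transcripts tested 9.52% were called, 4.25% as higher and 5.27% as lower. Among all those tested, 54 had a larger log2 fold change than Tgfbr2 and 20 a larger one than Thbs1. The lack of overlap with control libraries that both genes show was found, in the same direction, in 6.01% of the transcripts tested. Since this contrast chose both genes, nothing is read from their place in it.

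From scribKD to scribRES cells Tgfbr2 was lower, with a log2 fold change of -0.74 (standard error 0.09), which is a description for the reason given above. Of the 10342 transcripts tested, 1.46% were called, 0.561% as higher and 0.899% as lower, and 67 fell further than Tgfbr2. All 4 scribRES libraries lay below all 6 scribKD libraries for Tgfbr2, as they did for 4.84% of the transcripts tested. Thbs1 was not chosen on this contrast and could be tested, although its scribKD libraries are those that placed it in the list. It stood at -0.46 on the log2 scale (standard error 0.35, limma adjusted p = 0.45), which did not pass. This fit also held the scribKD libraries of experiment 1, which has no scribRES libraries. With experiment as a block Thbs1 was at -0.21 (limma adjusted p = 0.32), and with the block 757 transcripts were called where 151 were called without it. This p does not show an equal level in the 2 populations, because the difference was not the same in both experiments.

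In experiment 2 both scribRES libraries (498 and 536 RPKM) held less Thbs1 than both scribKD libraries (801 and 728). In experiment 3 both scribRES libraries (313 and 351 RPKM) held more than both scribKD libraries (308 and 295). Fitted apart, a choice made after seeing the data, Thbs1 gave -0.56 (standard error 0.06, limma adjusted p = 0.00059) in experiment 2 and 0.14 (standard error 0.06, limma adjusted p = 0.15) in experiment 3. The change from experiment 2 to experiment 3, tested as an interaction in 1 fit, was 0.70 (standard error 0.10, limma adjusted p = 0.00075). Such a difference was not rare, since 18.2% of the 10501 transcripts tested were called in this interaction. Tgfbr2 gave -0.79 in experiment 2 and -0.77 in experiment 3, and the difference between these was 0.02 (standard error 0.07), given as a description. The Scrib transcript moved in the same direction as Thbs1, with an interaction of 0.64 (standard error 0.09, limma adjusted p = 0.00087), and its part in the Thbs1 values was not tested.

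Between scribRES and control cells both genes could be tested, with the caveat that the control libraries took part in choosing them. Thbs1 was higher in scribRES cells, with a log2 fold change of 1.04 (standard error 0.17, limma adjusted p = 0.0038) and a ratio of the means of 2.08. In this comparison 7.89% of 10324 transcripts were called, 4.24% as higher and 3.65% as lower, and 101 rose more than Thbs1. Within experiments the rise was 1.16 (limma adjusted p = 0.00012) in experiment 2 and 0.98 (limma adjusted p = 0.0012) in experiment 3, and the interaction was -0.19 (standard error 0.15, limma adjusted p = 0.36). The call was lost when each experiment was reduced to 1 mean per population (1.04, limma adjusted p = 0.26), a limma fit in which none of the 10324 transcripts was called and 1149 had an unadjusted p under 0.05.

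Tgfbr2 was 1.26 times as high in scribRES as in control cells by the means. The fitted value was 0.33 on the log2 scale (standard error 0.08, limma adjusted p = 0.022), which passed the p threshold but not the threshold of 0.5 on the fold change, so Tgfbr2 was not called. The libraries did not overlap, as for Thbs1, and the same was true in this direction of 9.01% of all transcripts tested. Without scribRES replicate 3 or 4 the adjusted p was 0.082 and 0.081. The elevation was larger in experiment 2, at 0.52 (limma adjusted p = 0.00092), than in experiment 3, at 0.22 (limma adjusted p = 0.036). The interaction was -0.31 (standard error 0.09, limma adjusted p = 0.024), below the fold threshold, in a test in which 22.8% of 10457 transcripts were called. Read as a share of the scribKD rise over control, scribRES cells kept 29.5% of it for Tgfbr2 in experiment 2 and 16.7% in experiment 3, against 53.6% and 123% for Thbs1. The scribKD rise chose both genes, and the difference between scribRES and scribKD cells also chose Tgfbr2. These shares are therefore a description, and nothing is read from their difference between the genes.

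**Figure D2:**
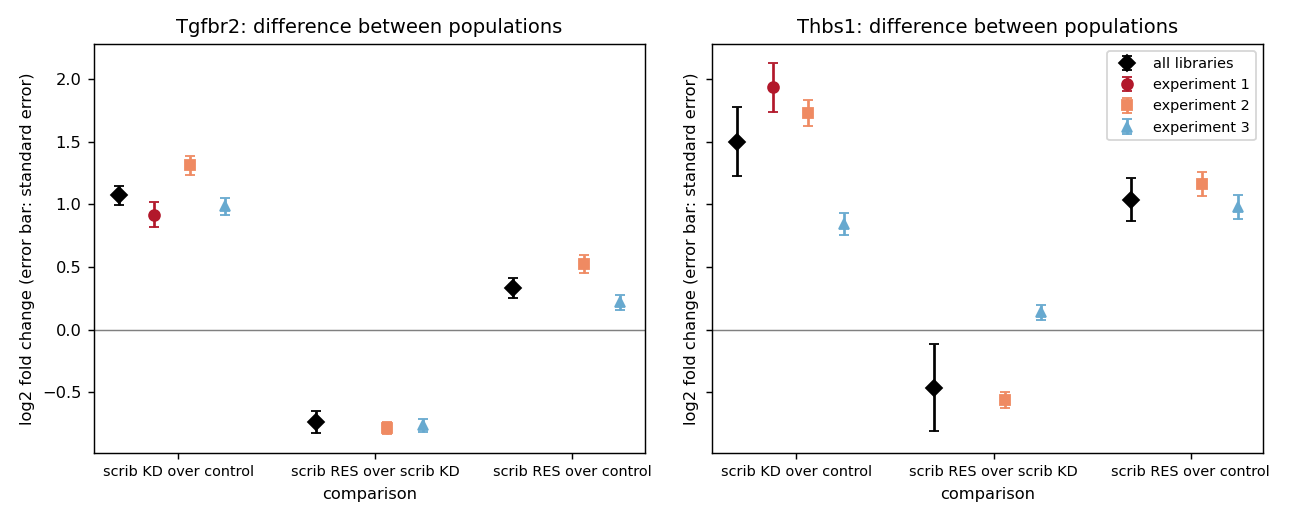
Log2 fold change of Tgfbr2 (left) and Thbs1 (right) in the 3 comparisons of populations, fitted over all libraries (black diamonds) and within each experiment (coloured), with standard errors as bars and 0 marked by a line. Tgfbr2 in scribRES over scribKD stays between -0.79 and -0.74 in every fit, while Thbs1 lies at -0.56 in experiment 2 and 0.14 in experiment 3.

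Experiments 3 and 2 were then compared directly, which the choice of the genes did not use. Over the 12 libraries of experiments 2 and 3, with the population in the fit, Thbs1 was lower in experiment 3 by a log2 fold change of -0.81 (standard error 0.13, limma adjusted p = 0.00024). For Tgfbr2 the value was -0.11 (standard error 0.06, limma adjusted p = 0.12). Of 9777 transcripts tested, 16.4% were called between these experiments, 8.62% as higher and 7.79% as lower. The fall of Thbs1 was present in each population, -0.46 in control, -1.34 in scribKD and -0.64 in scribRES cells, the scribKD value being the largest of the 3. For Tgfbr2 these values were 0.10, -0.23 and -0.21.

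Ordered by the mean of each population in each experiment, Tgfbr2 ran from 29.8 RPKM in control cells of experiment 2 through 31.9 (control, experiment 3), 33.4 (control, experiment 1), 37.1 (scribRES, experiment 3), 42.8 (scribRES, experiment 2), 63.1 (scribKD, experiment 3) and 63.2 (scribKD, experiment 1) to 74.0 in scribKD cells of experiment 2. The neighbours whose libraries overlapped were control cells of experiments 3 and 1, and scribKD cells of experiments 3 and 1. For Thbs1 the order was 169 RPKM (control, experiment 3), 211 (control, experiment 1), 232 (control, experiment 2), 302 (scribKD, experiment 3), 332 (scribRES, experiment 3), 517 (scribRES, experiment 2), 764 (scribKD, experiment 2) and 825 (scribKD, experiment 1). Control cells of experiments 1 and 2 overlapped, as did scribKD cells of experiments 2 and 1. The order of Tgfbr2 therefore followed the populations, and that of Thbs1 followed both the population and the experiment.

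Named transcripts of the pathway around the 2 genes were read from the same fits. The list held 117 symbols for ligands, receptors, Smads, inhibitors, factors that store or activate the ligands, common targets, and the thrombospondin family with its receptors, and 33 transcripts with a name fell on it beside Tgfbr2 and Thbs1. Most names come from the study's own lists of changed transcripts (22 of the 25 tested for scribKD over control, and 24 of 27 in the other comparisons), so the share called is no independent evidence of change or direction. In scribKD over control 4 of 25 were called higher and 6 lower, beside 4.25% and 5.27% of all transcripts tested, and their median log2 fold change was -0.06 against 0.02 for all. Of these 10 calls, those of Pmepa1, Itgb8 and Vim held when each experiment was reduced to 1 mean per population, and the other 7 were lost. With experiments 2 and 3 only, the calls of Inhba, Bmp4, Smad6 and Klf11 were lost (limma adjusted p = 0.059, 0.068, 0.059 and 0.095). Neither this fit nor the one over experiment means had experiment in the model. With experiment as a block the same transcripts were called as in the main fit, 4 higher and 6 lower, beside 4.61% and 5.86% of all. In scribRES over scribKD 1 of 27 was called, as lower, beside 0.899% of all, with medians of 0.16 and 0.01. With experiment as a block 6 were called higher and 2 lower, beside 4.4% and 2.92% of all. In scribRES over control 3 of 27 were called higher and 4 lower, beside 4.24% and 3.65% of all, with medians of 0.05 and 0.02. With the block 6 were called higher and 6 lower, beside 8.77% and 5.89% of all.

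The ligands did not move in 1 direction. Inhba, which encodes the activin A subunit, rose in scribKD cells with a log2 fold change of 1.36 (standard error 0.33, limma adjusted p = 0.010), from 10.9 to 20.7 RPKM in control to 15.4 to 85.7 RPKM in scribKD libraries. Its 2 lowest scribKD libraries, at 23.3 and 15.4 RPKM, were those of experiment 3, and the latter lay within the control range. Bmp4, a bone morphogenetic protein ligand, fell by 1.04 on the log2 scale (limma adjusted p = 0.0036) in scribKD over control. It ranged from 47.3 to 88.1 RPKM in control and from 21.2 to 46.9 in scribKD libraries. It was also lower in scribRES cells than in control, by -1.08 (limma adjusted p = 0.0033). Bmp7 averaged 37.5, 39.4 and 39.0 RPKM in control, scribKD and scribRES cells and passed no test. Gdf11, a relative of myostatin, averaged 10.7, 4.77 and 3.99 RPKM and was left out by the filter, because its replicates differed by more than the 2-fold limit or did not all exceed 5 RPKM. With a minimum of 1 RPKM and no such limit, its log2 fold change was -1.08 (limma adjusted p = 0.0067) in scribKD and -1.43 (limma adjusted p = 0.026) in scribRES over control.

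Beside Tgfbr2, the receptors with a name were type I receptors of bone morphogenetic proteins. Bmpr1a averaged 14.6 RPKM in control, 14.0 in scribKD and 15.6 in scribRES cells, and its log2 fold changes, -0.06, 0.16 and 0.10 in the order of scribKD over control, scribRES over scribKD and scribRES over control, passed no test. Bmpr1b was abundant, at 518 ± 176 RPKM (SD, n = 6) in control and 605 ± 137 (SD, n = 6) in scribKD cells, and did not pass in scribKD over control (0.26, limma adjusted p = 0.43). It differed between experiments 3 and 2 by -0.89 (limma adjusted p = 1.7e-06). Cd47, a cell surface receptor of Thbs1, averaged 151, 137 and 141 RPKM and passed no test. Of the 7 symbols for Thbs1 receptors in the list, only Cd47 had a named transcript. Transcripts of the TGF-beta ligands themselves, of Tgfbr1, of the signal-carrying Smads and of the other thrombospondins carried no name and were not analysed here.

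Of 5 inhibitors and feedback genes tested, 3 rose and 1 fell in scribKD cells, and Smad7 passed no test. Of all transcripts tested 4.25% were called higher and 5.27% lower. All 5 take their names from the study's lists of changed transcripts, so the share called is no independent evidence. Smad7, the inhibitory Smad named above, had a log2 fold change of 0.29 (limma adjusted p = 0.30). It held 11.6 to 15.9 RPKM in control libraries, 18.4 to 22.6 in scribKD libraries of experiments 1 and 2, and 10.2 and 10.4 in those of experiment 3, below every control library. Pmepa1, a TGF-beta target that restrains Smad signalling, had 57.7, 49.7, 40.1, 38.7, 38.1 and 31.4 RPKM in control libraries 1 to 6. It had 106, 129, 128, 126, 82.3 and 76.8 RPKM in scribKD libraries 1 to 6, and 89.4, 89.0, 92.3 and 96.3 in scribRES libraries 3 to 6. Both tetracycline-treated populations lay above all control libraries and overlapped each other. A lack of overlap with control in this direction was found in 6.01% of transcripts tested for scribKD and 9.01% for scribRES cells. On the log2 scale the difference was 1.34 (standard error 0.17, limma adjusted p = 8e-05) in scribKD and 1.13 (standard error 0.15, limma adjusted p = 0.0010) in scribRES over control. Smurf2, a ubiquitin ligase that acts on receptors and Smads, rose by 0.61 (limma adjusted p = 0.0019) in scribKD over control. Twsg1, a modulator of bone morphogenetic proteins, rose by 0.54 (limma adjusted p = 0.0030), a call lost to the fold threshold without scribKD replicate 5 or 6 (0.48 and 0.50). Smad6, an inhibitory Smad, fell by 0.58 (limma adjusted p = 0.015) in scribKD and by 0.53 (limma adjusted p = 0.028) in scribRES over control. The latter call was lost without control replicate 3 or 4 or any 1 of the scribRES libraries (between -0.57 and -0.46). Fst, which encodes the activin antagonist follistatin, was singled out after its values were seen and was left out by the same filter. It ranged from 16.3 to 81.9 RPKM in control, 3.03 to 12.7 in scribKD and 2.55 to 7.01 in scribRES libraries. With the looser filter its log2 fold change was -2.55 (limma adjusted p = 0.0025) in scribKD and -3.18 (limma adjusted p = 0.0042) in scribRES over control.

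Of the 3 named factors that store or activate the ligands, beside Thbs1, Itgb8 was called in scribKD over control and Itgb6 and Bmp1 were not. Itgb8 encodes an integrin subunit that can activate latent TGF-beta, and it fell by 0.84 (limma adjusted p = 0.00029) in scribKD over control, from 64.7 to 108 RPKM in control to 39.9 to 57.2 in scribKD libraries. In scribRES cells it ranged from 58.7 to 90.0 RPKM. In scribRES over scribKD the value was 0.57 (standard error 0.14, limma adjusted p = 0.052), and with experiment as a block it was 0.65 (limma adjusted p = 0.0013). Itgb8 and Thbs1 thus differed from control in opposite directions in scribKD cells. Itgb6 in scribRES over scribKD had 0.35 (limma adjusted p = 0.42), and with the block 0.68 (limma adjusted p = 0.00023). Bmp1 in scribRES over control had 0.44 (limma adjusted p = 0.065), and with the block 0.59 (limma adjusted p = 0.00049). With the block 4.4% of all transcripts tested were called higher in the former comparison and 8.77% in the latter.

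Of 11 transcripts of common targets tested in scribKD over control, 3 were called, each as lower, beside 5.27% of all transcripts tested. Among these 11, 2 were above 0, and the median log2 fold change was -0.38 against 0.02 for all. All 11, which include both Tsc22d1 transcripts, take their names from the study's lists of changed transcripts. The filter left out Tgfbi, Lox, Id1, Atf3 and Cdkn2b. With the looser filter these had 1.16, 0.32, 0.22, 0.10 and -0.53 without experiment in the model, and none was called. Read after the values were seen, Tgfbi in scribKD against control libraries was 122 and 131 against 42.7 and 49.4 RPKM in experiment 1. It was 125 and 105 against 51.2 and 51.2 in experiment 2, and 6.41 and 5.27 against 3.28 and 3.02 in experiment 3. For Lox too both scribKD libraries lay above both control libraries in each experiment, which did not hold for Id1, Atf3 or Cdkn2b. In scribRES over control 2 of 14 were called higher and 2 lower, beside 4.24% and 3.65% of all, with medians of -0.05 and 0.02. The collagen IV genes Col4a1 (0.69, limma adjusted p = 0.0047) and Col4a2 (0.81, limma adjusted p = 0.017), which encode basement membrane chains, rose in scribRES over control. The latter call was lost without scribRES replicate 3 or 4 (0.72 and 0.71).

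Vim, the intermediate filament vimentin, fell by 1.26 (standard error 0.09, limma adjusted p = 1e-06) in scribKD and by 1.00 (limma adjusted p = 0.00057) in scribRES over control, on the log2 scale. It ranged from 3321 to 4184 RPKM in control, 1385 to 1655 in scribKD and 1593 to 2090 in scribRES libraries. Klf11, a transcription factor, fell by 0.58 (limma adjusted p = 0.014) and Tsc22d1 (XM_003639801.1), a leucine zipper protein, by 0.72 (limma adjusted p = 0.00041) in scribKD over control. The other named Tsc22d1 transcript had -0.43 (limma adjusted p = 0.086) and was not called. Id3, an inhibitor of differentiation, had a log2 fold change of -1.03 (limma adjusted p = 0.018) in scribRES over control and of -0.64 (limma adjusted p = 0.045) in scribRES over scribKD. The former was lost without scribRES replicate 3 or 4 (-0.97 and -0.94). The latter was the 1 call of the list in that comparison, and it held in 7 of 23 alternative settings.

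**Figure D3:**
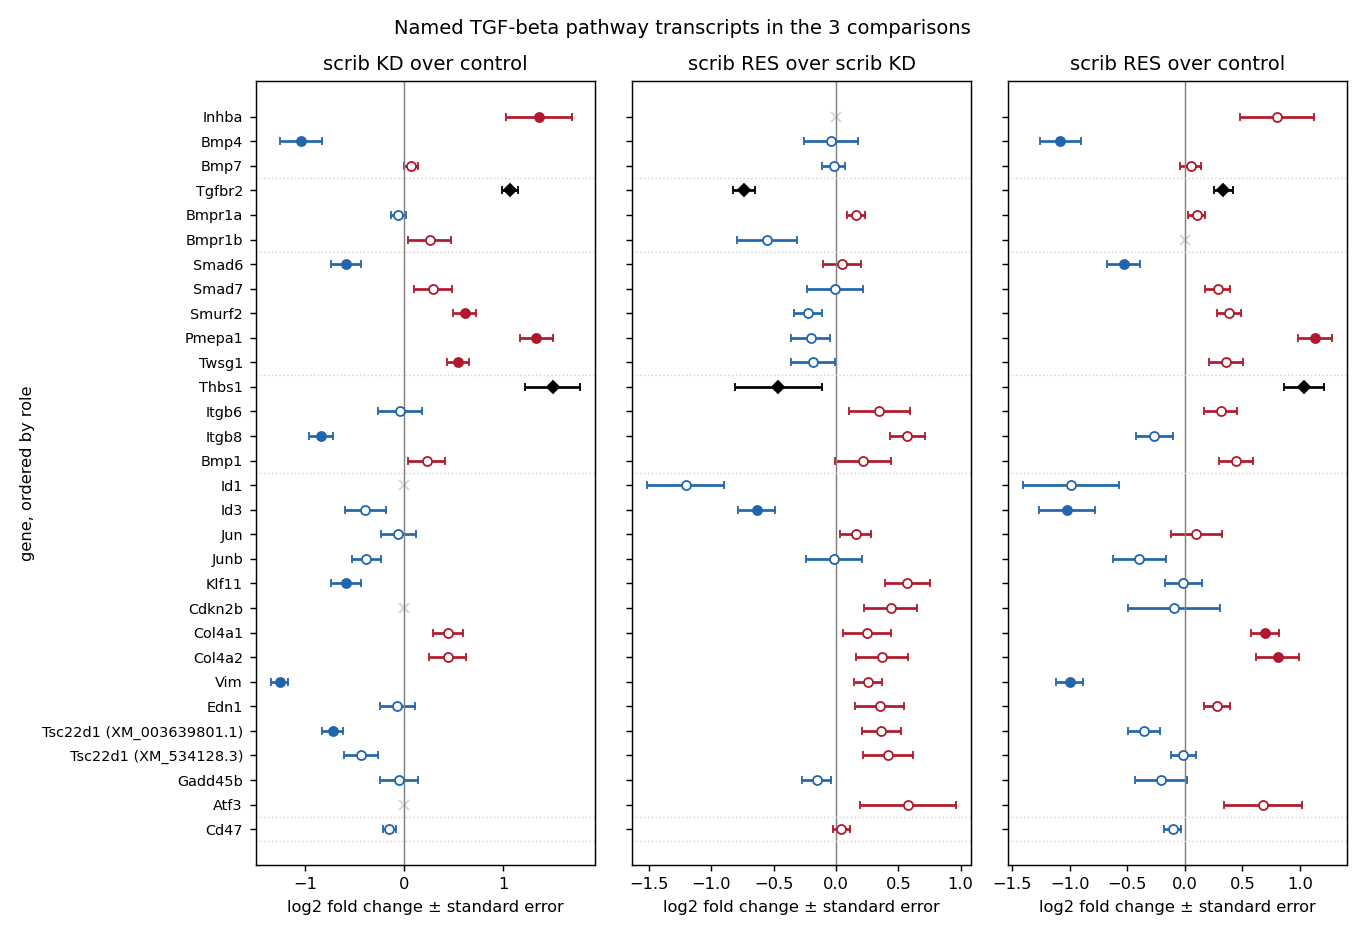
Log2 fold change with standard error of the named TGF-beta pathway transcripts in the 3 comparisons, ordered by role from ligands at the top to targets and Cd47 at the bottom. Filled circles were called, open ones were tested and not called, grey crosses were not tested, red is higher and blue lower, and the black diamonds are Tgfbr2 and Thbs1, for which no call is shown. Calls run in both directions, from Inhba at 1.36 to Vim at -1.26 in scribKD over control.

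The list was also read between experiments 3 and 2. Of 27 list transcripts 2 were called higher and 6 lower, beside 8.62% and 7.79% of all transcripts tested, with a median log2 fold change of -0.12 against -0.02 for all transcripts tested. Cdkn2b (1.00) and Atf3 (0.90) were higher. Lox (-1.14), Inhba (-1.05), Id1 (-0.97), Bmpr1b (-0.89), Bmp4 (-0.70) and Col4a2 (-0.57) were lower. For Id1 the direction was the opposite in scribRES cells alone, at 0.30. In single populations calls were also lost for Atf3 (0.09 in scribRES), Bmp4 (-0.26 in scribRES), Inhba (-0.47 in control), Col4a2 (-0.45 in control) and Cdkn2b (0.46 in scribKD). Tgfbi, another secreted matrix protein and TGF-beta target, named after its values were seen, showed the widest gap, with 42.7 to 51.2 RPKM in control libraries of experiments 1 and 2 and 3.02 and 3.28 in those of experiment 3. In scribKD cells it was 105 to 131 RPKM against 5.27 and 6.41, and in scribRES cells 118 and 125 against 18.1 and 25.6.

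**Figure D4:**
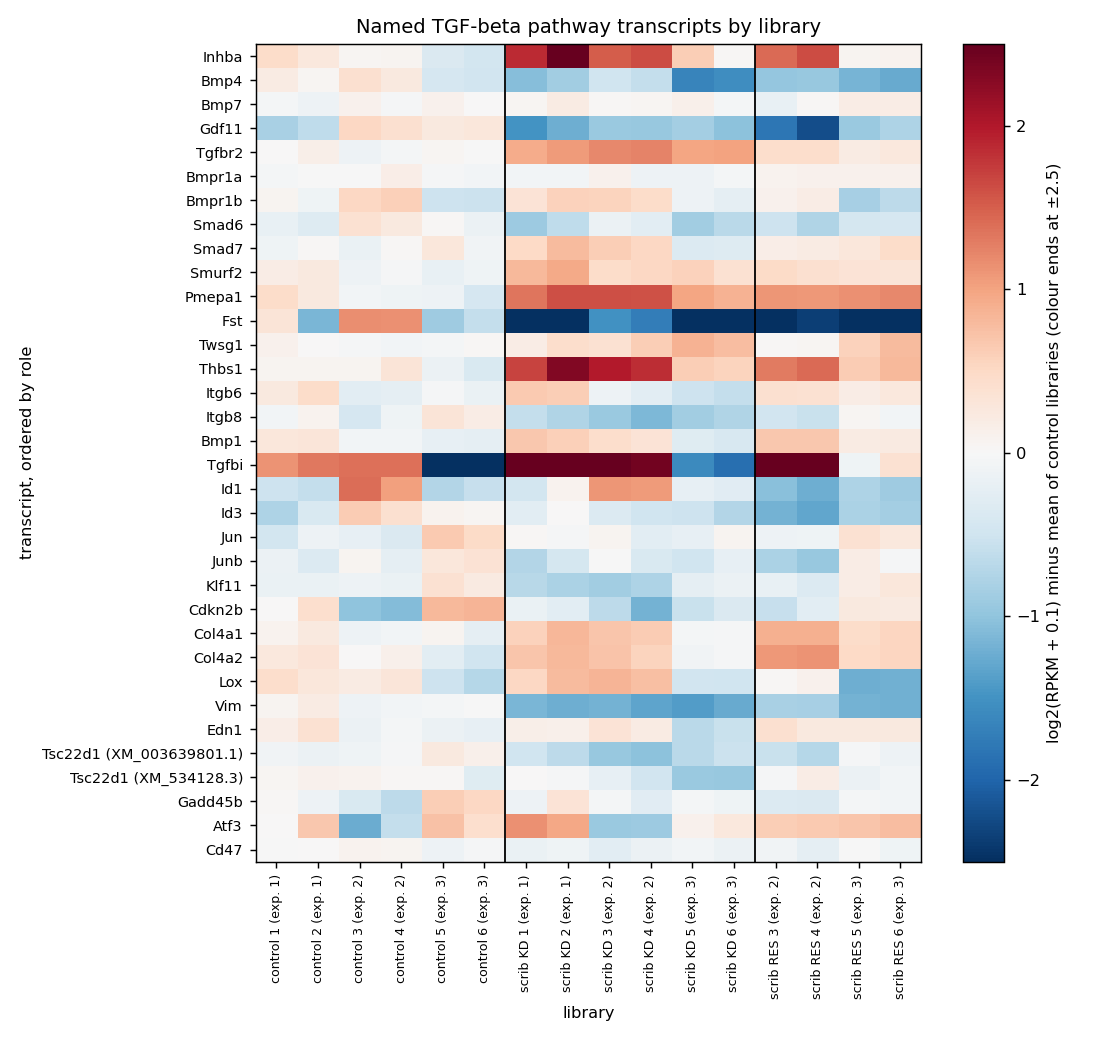
Levels of the named TGF-beta pathway transcripts in each of the 16 libraries, as log2(RPKM + 0.1) minus the mean of the 6 control libraries, in red where higher and blue where lower, with the colour ending at 2.5 in either direction. Thbs1 and Inhba are paler in scribKD libraries 5 and 6 (experiment 3) than in scribKD libraries 1 to 4, while Tgfbr2 is even across scribKD libraries.

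The named transcripts with the pattern most like each gene were found by Pearson r of log2(RPKM + 0.1) over the 16 libraries, among 1555 named of 10705 transcripts compared. Of the 1978 transcripts named in all, 1388 and 183 took their names from the study's 2 lists of transcripts that differ between these populations. Both genes came from the same source, so a high r over the 16 libraries was in part set by the naming. The libraries share populations and experiments, so r describes likeness only, and a second r was taken after the mean of each population was removed. For Tgfbr2 the first was Cdkn1a, an inhibitor of cyclin-dependent kinases (r = 0.978, and 0.647 within populations), with 143, 593 and 212 RPKM in control, scribKD and scribRES cells. Ccng1 (cyclin G1, 0.948), Plscr3 (a phospholipid scramblase, 0.948), Tbc1d2 (a Rab GTPase-activating protein, 0.942) and Sytl1 (a synaptotagmin-like protein, 0.940) followed. Within populations the r of these 4 fell to between 0.0570 and 0.311. Their likeness to Tgfbr2 thus lay mostly in the order of the populations.

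For Thbs1 the likeness was also present within populations. The first of those reported was Icam1, a leukocyte adhesion molecule (r = 0.974, and 0.959 within populations), followed by the transcripts XM_538410.4 (0.956 and 0.942) and JF508171.1 (0.954 and 0.941) of Timp3, an inhibitor of matrix metalloproteases. Both Timp3 transcripts may share reads, so they are uncertain as separate evidence. Clu, a secreted chaperone (0.949 and 0.874), and Strn3, a striatin scaffold protein (0.944 and 0.834), came next. Icam1 averaged 50.2, 98.3 and 77.6 RPKM, and Timp3 (XM_538410.4) 103, 372 and 181 RPKM, in control, scribKD and scribRES cells. Tgfbr2 and Thbs1 themselves had an r of 0.801 over the 16 libraries and of 0.473 within populations.

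**Figure D5:**
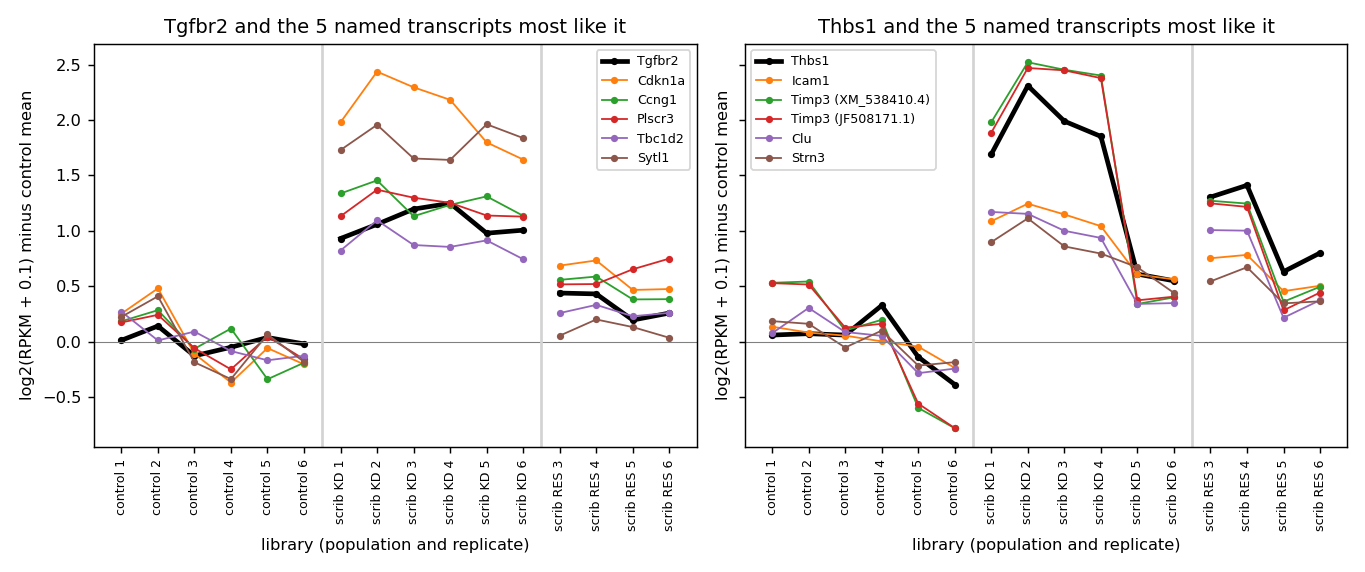
Tgfbr2 (left) and Thbs1 (right), in black, with the 5 reported named transcripts most like each, in colour, as log2(RPKM + 0.1) minus the control mean for each library, with grey lines between populations. The transcripts like Thbs1 (r from 0.944 to 0.974) fall with it in scribKD libraries 5 and 6, while those like Tgfbr2 (r from 0.940 to 0.978) stay high in all 6 scribKD libraries.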

How the data were processed

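RNA was sequenced from 16 libraries in 17 runs. The authors trimmed the reads with cutadapt 1.0, mapped them with TopHat2 2.0.6 to the dog genome, counted reads overlapping each transcript and deposited RPKM, and their own differential expression used edgeR. The library kit does not mark strand, so reads of a gene and of an antisense partner cannot be told apart. How reads that match several transcripts were treated is not given in the sources used here. RPKM divides by library total, so a few abundant transcripts can shift all others. Median-ratio scaling served as a check.

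Gene names came from the study's first table (1388 transcripts), else its second (183), else a RefSeq gene table (407), which covers 9.17% of transcripts. Tgfbr2, Thbs1, the gene lists and the tests were chosen with earlier results of these data known. The RPKM move in steps of 1 read, from which whole reads and transcript lengths were recovered for 18873 transcripts (tolerance 0.01 reads), with 2698 at 0 in every run. Each pair of populations was fitted with limma 3.58.1 in R 4.3.3 (lmFit, eBayes with trend) on log2(RPKM + 0.1), two-sided, with Benjamini-Hochberg adjustment over all transcripts tested. A transcript was tested where every replicate of at least 1 group exceeded 5 RPKM within a 2-fold range, and called where the adjusted p was below 0.05 and the log2 fold change exceeded 0.5 in either direction. Between experiments 3 and 2 it was tested where all 12 libraries exceeded that minimum, and interactions used the first filter on the libraries of those experiments. The fits were tested on simulated data.

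Named genes were Tgfbr2, Thbs1 and Scrib, list transcripts called in a comparison, named ligands and receptors above 1 RPKM, and the 5 transcripts most like each gene. The labels name the experiment of each library, so experiment marks a shared batch. Deviations from the population means correlated at 0.61, 0.34 and 0.39 between same-numbered libraries in the 3 comparisons. Between differently numbered libraries of the same experiment the values were 0.71, 0.35 and 0.38. Between libraries of other experiments they were -0.33, -0.17 and -0.19. Alternatives were other pseudocounts (0.01 and 1), scaling, blocks, experiments 2 and 3 only, experiment means, voom on recovered reads, 1 fit over all populations, the first run only, a minimum of 1 RPKM, and leaving out each replicate. For differences between populations, only the block fits held experiment or replicate number in the model. Tables and plots were made in Python 3.11.15 (numpy 2.4.6, pandas 2.3.3, matplotlib 3.10.9). Sequences and coordinates were not analysed here, and 1 gene, with a transcript that may share its reads, was left out of the pathway list and the likeness ranking and is not reported here.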

Additional observations from a re-analysis of the deposited data

Results flagged for a closer look

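The log2 fold change of Thbs1 in scribRES over scribKD differed between experiments, being higher by 0.70 in experiment 3 than in experiment 2 (limma adjusted p = 0.00075), with both scribRES libraries below both scribKD libraries in experiment 2 and above them in experiment 3. That of Tgfbr2 in scribRES over control differed by -0.31 (limma adjusted p = 0.024), with all 4 scribRES libraries above their control libraries in both experiments.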

How the results depend on the processing

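Under every alternative other than single experiments, Tgfbr2 and Thbs1 kept the direction of every difference between populations, and a replicate block for experiment changed the call of neither in any tested comparison (Tgfbr2 1.07, -0.78 and 0.37 and Thbs1 1.50, -0.21 and 1.07 for scribKD over control, scribRES over scribKD and scribRES over control). Leaving out each replicate gave ranges of 1.03 to 1.10, -0.77 to -0.69 and 0.30 to 0.38 for Tgfbr2 and of 1.34 to 1.69, -0.65 to -0.30 and 0.91 to 1.17 for Thbs1. Over experiment means, Thbs1 in scribRES over control was not called (1.04). Within single experiments, added after seeing the data, scribKD over control was 0.92 in experiment 1 and 1.31 in experiment 2 for Tgfbr2 and 0.84 in experiment 3 for Thbs1. Thbs1 in scribRES over scribKD was -0.56 in experiment 2 and reversed to 0.14 in experiment 3, and Tgfbr2 in scribRES over control was called in experiment 2 (0.52). In control cells alone, experiment 3 over experiment 2 reversed to 0.10 for Tgfbr2 and was -0.46, not called, for Thbs1, and in scribRES cells alone it reversed to 0.30 for Id1. The cause of these changes was not tested.

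Counts of calls moved more. In scribKD over control 923 were called, against 201 over experiment means, 1419, 1770 and 1904 in experiments 1, 2 and 3 alone, and 827 to 1029 leaving out replicates. In scribRES over scribKD 151 were called, against 757 with experiment as a replicate block, 404 with the replicate number as the block, 314 in experiments 2 and 3 only, 2474 and 643 in experiments 2 and 3 alone, and 51 to 227 leaving out replicates. In that comparison, leaving out any library other than scribKD replicate 6 moved the count by over 1.5 times. In scribRES over control 815 were called, against 1513 with the experiment block, 3575 in experiment 2 alone, and 474 to 1026 leaving out replicates, the lowest, 478 and 474, without scribRES replicates 3 and 4. Over experiment means limma called 0 transcripts in both scribRES comparisons, with 466 and 1149 at an unadjusted p under 0.05. For experiment 3 over experiment 2, 1605 were called, and 2997 in control cells alone. Of the pathway list, in scribKD over control 10 of 25 were called, beside 9.52% of all transcripts tested. Over experiment means 3 were called (2.07% of all), and 18 in each of experiments 2 and 3 alone (16.3% and 17.2% of all). Leaving out replicates gave 10 to 11. In scribRES over scribKD 1 of 27 was called, beside 1.46% of all. The experiment block gave 8 (7.32% of all), the number block 5 (3.91%) and experiments 2 and 3 only 3 (2.99%). Experiments 2 and 3 alone gave 11 and 15 (22.4% and 5.85%). The count was 0 over experiment means, with voom, in 1 fit of all populations or at a minimum of 1 RPKM (0%, 1.32%, 1.29% and 1.22% of all). In these 4 settings 3, 8, 8 and 8 had an unadjusted limma p under 0.05. Leaving out replicates gave 0 to 2. In scribRES over control 7 of 27 were called, beside 7.89% of all. The experiment block gave 12 (14.7% of all), and experiment means gave 0 (0% of all, with 7 of the list unadjusted). Experiments 2 and 3 alone gave 19 and 13 (32.3% and 10.3%). Leaving out replicates gave 4 to 8, with 4 without scribRES replicate 3 or 4. For experiment 3 over experiment 2, 8 of 27 in the list were called (16.4% of all), and 14 in scribKD cells alone (20.4% of all). Single experiments hold 2 libraries per population, which may come from 1 biological replicate. Depth was no limit for Tgfbr2 and Thbs1, whose counting error was at most 2.35%.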
